A study of Mus musculus with 6 samples.

Results

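The genes described here encode the proteins of the mitochondrial ribosome, as measured in mouse hippocampal neurospheres. They were chosen by symbol alone, as every gene whose symbol starts with Mrpl or Mrps followed by a digit. This gave 78 of the 14327 genes in the table, 49 named for the large subunit and 29 named for the small subunit. All 78 passed the filter on low values, a mean of at least 1 FPKM over the 6 libraries, as did 11596 genes in all. FPKM is the number of sequenced fragments scaled by transcript length and library size, so that levels of different genes can be set side by side. The files give no read totals, so the depth behind each value is unknown.

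Neurospheres are clumps of neural stem and progenitor cells that grow in suspension. Here they were grown from the hippocampus of mice at postnatal day 0, dissociated and kept with B27, N2, EGF and bFGF. The libraries numbered 6, of which 3 were wild type (WT) and 3 were labelled as a conditional knockout (cKO) of Slc22a17, the gene of a lipocalin 2 receptor. The labels give neither the Cre driver nor the strain. They name no separate animals or cultures within a group, so the p-values measure only the spread among these samples, part or all of which may be technical.

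The mitochondrial ribosome translates the few proteins encoded by mitochondrial DNA, all of them core subunits of the respiratory chain and the ATP synthase. Its RNAs are made inside the mitochondrion, whereas its proteins are encoded in the nucleus, made in the cytosol and imported. Many of these proteins descend from bacterial ribosomal proteins, and others were added in the mitochondrial lineage. Neural stem cells shift from glycolysis towards respiration as they differentiate, which is the setting in which this machinery is usually discussed in this tissue.

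The target transcript was present in every library. Slc22a17 read 181, 169 and 204 FPKM in WT, against 164, 166 and 187 FPKM under the cKO label, and the groups overlapped. Its log2 fold change was -0.10 (SE 0.086, limma adjusted p = 0.707), and an exact two-sided permutation test of the 6 values gave p = 0.5, where 0.1 is the smallest that 3 against 3 libraries allow. The sources used here do not say which exons were deleted, so this gene does not bear out the labels. Every direction given is therefore between WT libraries and those that carry the cKO label. Y-linked Ddx3y and Eif2s3y together stood at 0.10 and 0.07 FPKM in WT replicates 1 and 2 and at 25.9 to 51.2 FPKM in the other 4 libraries. Neural stem cell markers summed to 3594 to 4091 FPKM, and all 10 were tested. Neuron markers summed to 83.2 to 102.7 FPKM and oligodendrocyte markers to 1351 to 1869 FPKM. Endothelial markers summed to at most 1.65 FPKM, with 4 of 8 listed in the table, and microglial markers to 7.1 to 17.8 FPKM. Of 10 listed neuron markers 3 passed the filter on low values, as did 3 of 10 microglial markers. Summed mitosis markers ran from 310 to 392 FPKM in WT and from 215 to 299 FPKM in the libraries labelled cKO. Summed astrocyte markers ran from 4187 to 5510 and from 5604 to 5971 FPKM. The groups did not overlap in either sum. Their part in the results on the ribosome was not tested, and in bulk RNA fewer cells of a type and less RNA per cell cannot be told apart.

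Mitochondrial ribosomal protein transcripts were abundant, and their levels were far from equal. The median member stood at 34.1 FPKM over the 6 libraries, against 12.3 FPKM for all tested genes, and 71 of the 78 members were above that latter value. Large subunit members ran from 6.24 FPKM for Mrpl19, the counterpart of bacterial L19, to 125 FPKM for Mrpl42, a mitochondria-specific protein. That is a ratio of 19.97 in level. Small subunit members ran from 13.3 FPKM for Mrps25, which has no bacterial counterpart, to 174 FPKM for Mrps6, the counterpart of bacterial S6, a ratio of 13.1. In the assembled ribosome nearly all of these proteins are present once. The second highest levels were those of Mrpl12, the stalk protein that recruits translation factors, with means of 90.2 ± 4.30 FPKM in WT and 82.9 ± 10.3 FPKM under the cKO label, and of Mrps21, with 112 ± 13.1 and 109 ± 6.88 FPKM (SD, n = 3 each). The second lowest were those of Mrpl1, of the stalk at the exit side, with 8.48 ± 1.02 and 7.97 ± 0.356 FPKM, and of Mrps31, with 17.2 ± 0.466 and 17.2 ± 0.742 FPKM. The order of levels was nearly the same in both groups, with a Spearman correlation of 0.994 between the WT and cKO means across the 78 genes, which share libraries and transcript lengths and are not replicates.

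**Figure D1:**
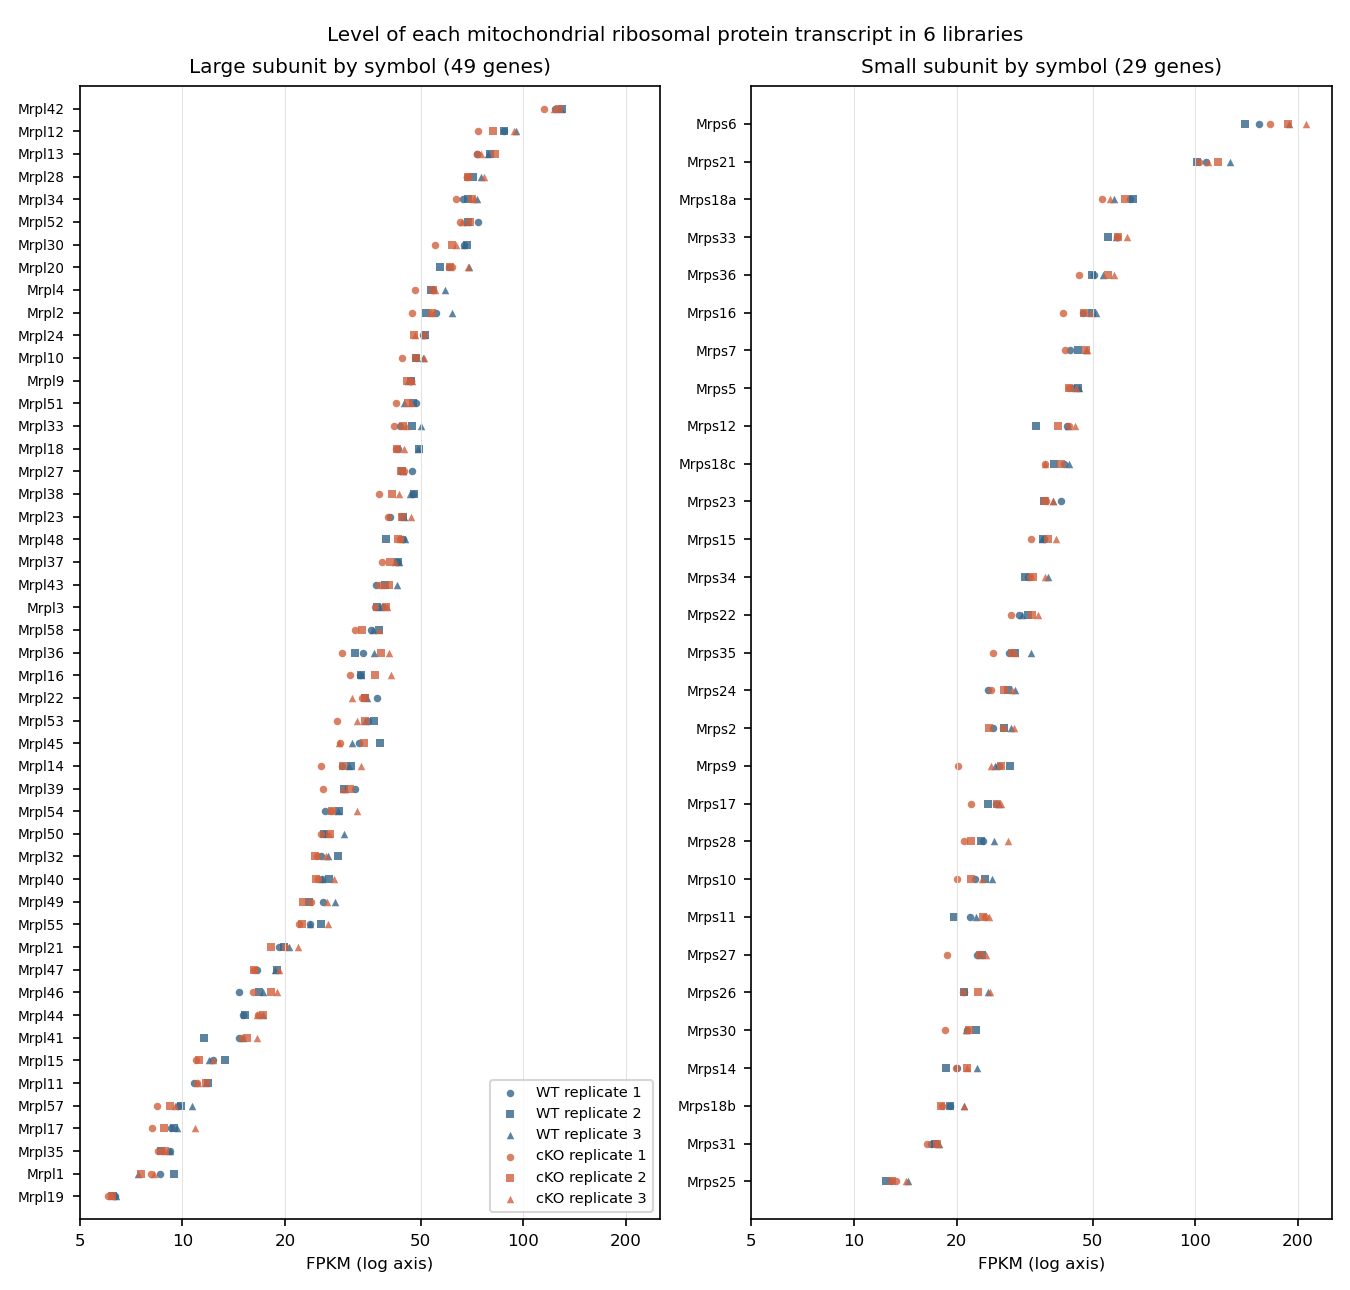
FPKM of each of the 78 genes in the 6 libraries on a log axis, ordered by mean, for the large subunit (left, 49 genes) and the small subunit (right, 29 genes); blue marks WT, orange marks cKO and the shape marks the replicate. Levels run from 6.24 FPKM for Mrpl19 to 174 FPKM for Mrps6, and the 6 libraries of a gene lie close together on this scale.

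The level of Mrps6 has a limit of its own. By the GENCODE annotation 305 of its 846 exonic bases are shared, on the same strand, with the predicted protein-coding gene Gm49711, and 159 with Slc5a3, the inositol transporter gene, whose own mean was 14.1 FPKM in WT and 14.9 FPKM under the cKO label. In all, 17 members share exonic bases with another protein-coding gene, most of them on the opposite strand, and reads from such stretches cannot be assigned where the counting did not use strand. All exonic bases of Mrpl53 are shared with the predicted gene Gm42688 on the same strand. The next largest share with a protein-coding gene was that of Mrps25, with 58.2% of its exonic bases shared with Nr2c2 on the opposite strand. A further limit is that 6 members (Mrpl23, Mrpl27, Mrpl48, Mrpl51, Mrps33 and Mrps36) have pseudogenes named after them, with which they may share reads.

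No mitochondrial ribosomal protein gene changed past the threshold between the groups. Of 49 large subunit and 29 small subunit members, 0 passed an adjusted p of 0.05 in limma over all tested genes, where 0.0259% of all tested genes passed (0.00862% higher and 0.0172% lower). The lowest adjusted p of a member was 0.257, for Mrpl38. At an unadjusted p under 0.05 there were 3 members, with Mrpl38 and Mrpl30 lower and Mrps11 higher. That is 2.56% of members lower and 1.28% higher, against a background of 7.82% and 4.44% of all tested genes. The values of the groups did not overlap for 6 members with lower values (Mrpl19, Mrpl30, Mrpl37, Mrpl38, Mrpl53 and Mrpl57), all in the large subunit, and for 1 with higher values, Mrps11 in the small subunit. The background of such genes was 10.2% lower and 7.07% higher, where the shares of all members were 7.69% and 1.28%. By subunit the shares were 12.2% lower and 0% higher in the large, and 0% lower and 3.45% higher in the small. Only the lower share of the large subunit was above the background, and at 12.2% against 10.2% it was close to it. Mrpl19 and Mrpl37 separated narrowly. Their highest values under the cKO label were 6.20 and 42.1 FPKM, and their lowest in WT were 6.27 and 42.6 FPKM.

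The differences were small and their intervals narrow. Levels in the libraries labelled cKO were between 86.4% and 117% of the WT mean, and 69 of the 78 members were within 10% of it. The median size of the log2 fold change, regardless of sign, was 0.058 for members and 0.077 for all tested genes. For 70 of 78 members (89.7%) the 95% interval of the difference lay wholly within 1.25-fold in either direction, as it did for 64.3% of all tested genes. The median standard error was 0.073 for members and 0.082 for all tested genes. All tested genes were not matched to the members for level, since their median was 12.3 FPKM against 34.1 FPKM for members. The other 8 members were Mrpl12, Mrpl38, Mrpl41, Mrpl45, Mrpl53, Mrps6, Mrps9 and Mrps11, which are named here because of their intervals. The lowest bound was 75.8% of WT for Mrps9 and the highest was 142% for Mrps6, both computed on log2(FPKM + 1).

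**Figure D2:**
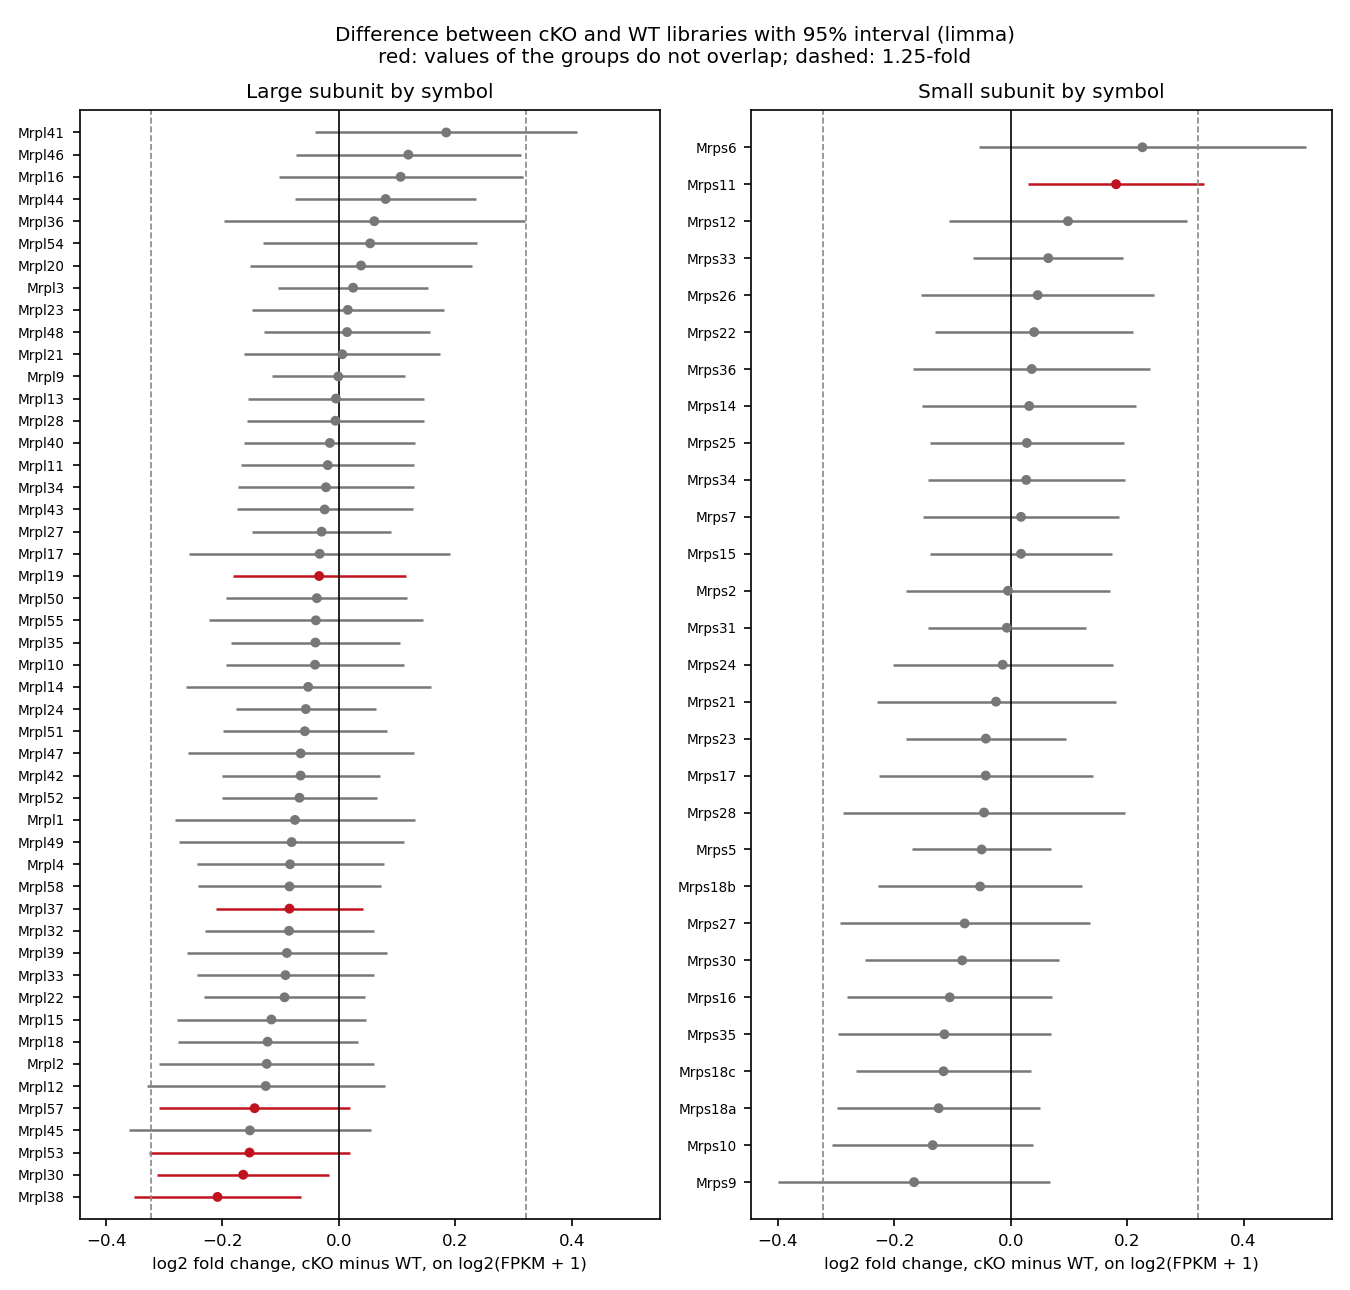
Difference between the libraries labelled cKO and WT (log2 fold change on log2(FPKM + 1), points) with its 95% interval from limma (bars) for each large subunit (left) and small subunit (right) gene; red marks the 7 genes whose groups do not overlap and dashed lines mark 1.25-fold. The intervals of 70 of the 78 genes stay between the dashed lines.

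In the large subunit lower means outnumbered higher ones, while the differences were small. Of 49 members 38 had a lower mean log2 value in the libraries labelled cKO (77.6%, where 55.5% of all tested genes were lower), and the median log2 fold change was -0.041 against -0.015 for all tested genes. Without cKO replicate 1 that median was -0.017. With each library scaled by its median ratio to the geometric mean library, 34 of 49 were lower and the median was -0.024, where 5772 of 11596 tested genes were lower. With library weights 28 of 49 were lower and the median was -0.016. The 30 members with a bacterial counterpart had a median of -0.040, with 24 lower. The 19 mitochondria-specific members had a median of -0.066, with 14 lower. None of them passed.

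Mrpl38, a mitochondria-specific protein of the central protuberance of the large subunit, had the lowest p of all members. It lies on chromosome 11 (116131817 to 116138868 in GRCm38; gene identifier 60441). It stood at 47.4, 47.6 and 46.5 FPKM in the 3 WT libraries, against 37.7, 41.3 and 43.3 FPKM in the 3 that carry the cKO label. Each of the latter was below each WT library, and cKO replicate 1 was the lowest. The means were 47.2 ± 0.595 and 40.8 ± 2.83 FPKM (SD, n = 3 each). On the log2 scale this was a difference of -0.21 (SE 0.063, adjusted p = 0.257). Without cKO replicate 1 the log2 fold change of Mrpl38 was -0.15.

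Mrpl30, the counterpart of bacterial L30 (gene identifier 107734, chromosome 1, 37890477 to 37898338), stood at 66.7, 68.3 and 66.9 FPKM in the 3 WT libraries, against 55.1, 61.6 and 63.5 FPKM in the 3 that carry the cKO label. The groups did not overlap, and again cKO replicate 1 was lowest. The log2 fold change was -0.16 (SE 0.065, adjusted p = 0.362), and it was -0.10 without cKO replicate 1. Mrpl53, a mitochondria-specific protein, was at 35.04, 36.5 and 34.3 FPKM in the 3 WT libraries, against 28.3, 34.3 and 32.5 FPKM in the 3 that carry the cKO label. Its cKO replicate 2 lay just below WT replicate 3, so the separation was narrow (adjusted p = 0.461). Mrpl57, a small mitochondria-specific protein, was at 9.70, 9.91 and 10.7 FPKM and at 8.44, 9.18 and 9.51 FPKM (adjusted p = 0.463). Mrpl18, which in bacteria binds the small RNA of the large subunit and in mammalian mitochondria the transfer RNA that takes its place, averaged 47.2 ± 3.63 and 43.2 ± 1.27 FPKM (adjusted p = 0.503). For Mrpl18 the groups overlapped, since WT replicate 1 was at 43.0 FPKM and cKO replicate 3 at 44.6 FPKM.

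On the other side, 11 large subunit members had higher means. Mrpl41 was at 14.7, 11.6 and 15.0 FPKM in the 3 WT libraries, against 15.0, 15.5 and 16.6 FPKM in the 3 that carry the cKO label. The difference rested mostly on the low WT replicate 2, since the log2 fold change was 0.18 with all libraries (adjusted p = 0.489) and 0.072 without that one. Mrpl46, a protein of the central protuberance, averaged 16.2 ± 1.37 and 17.7 ± 1.496 FPKM (adjusted p = 0.616). Mrpl44, a protein with a ribonuclease III fold that is mutated in an infantile cardiomyopathy, averaged 15.9 ± 1.23 and 16.8 ± 0.339 FPKM (adjusted p = 0.689). Mrpl36, the counterpart of the smallest bacterial protein of the large subunit, was among the members that spread most over the 6 libraries. It ran from 32.04 to 36.5 FPKM in WT and from 29.3 to 40.4 FPKM in the libraries labelled cKO, with both extremes in the latter.

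In the small subunit the means divided almost evenly. Of 29 members 17 had lower means (58.6%) and the median log2 fold change was -0.014, close to that of all tested genes. With the same scaling, 14 of 29 were lower (48.3%) and the median was 0.0035. The sign of the median also turned without WT replicate 3, to 0.012, and without cKO replicate 1, to 0.035. Of the 16 members with a bacterial counterpart 10 were lower, and of the 10 mitochondria-specific members 5 were lower. The latter class includes Mrps18b, which was lower, although it is a relative of bacterial S18.

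Mrps11, the counterpart of a bacterial protein near the path of the messenger RNA, was the only small subunit member whose groups did not overlap. It lies on chromosome 7 (78783131 to 78792988; gene identifier 67994). It was at 21.8, 19.7 and 22.7 FPKM in the 3 WT libraries, against 24.2, 23.9 and 24.9 FPKM in the 3 that carry the cKO label. Its mean was 21.4 ± 1.57 FPKM in WT and 24.4 ± 0.515 FPKM under the cKO label, which on the log2 scale is a difference of 0.18 (SE 0.066, adjusted p = 0.328). The sign of Mrps11 turned, to -0.016, when Y-linked expression was a covariate. Relative to the cKO mean, that covariate was 0.14% to 53.4% in WT and 90.3% to 105.6% under the cKO label. It nearly follows the groups, so this fit can hardly tell it and the group apart. Mrps6 had the highest fold change of all members but also a wide spread, at 154, 140 and 189 FPKM in the 3 WT libraries, against 165, 187 and 211 FPKM in the 3 that carry the cKO label. WT replicate 3 lay above 2 of the 3 libraries labelled cKO, and the log2 fold change of 0.23 (SE 0.123, adjusted p = 0.496) was -0.014 against WT replicate 3 alone.

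Mrps9 went the other way, with its difference resting on 1 library. It was at 26.6, 28.7 and 25.8 FPKM in the 3 WT libraries, against 20.2, 27.0 and 25.2 FPKM in the 3 that carry the cKO label. The log2 fold change of Mrps9 was -0.17 (SE 0.102, adjusted p = 0.557) and fell in size to -0.047 without cKO replicate 1. Mrps10 averaged 24.1 ± 1.37 and 21.9 ± 1.84 FPKM (adjusted p = 0.512), and the mitochondria-specific Mrps35 averaged 30.4 ± 2.40 and 28.0 ± 2.26 FPKM (adjusted p = 0.613). Mrps12, which sits at the decoding centre and whose bacterial counterpart carries resistance mutations to streptomycin, averaged 39.5 ± 4.61 and 42.2 ± 2.43 FPKM (adjusted p = 0.714). Mrps33 averaged 57.7 ± 1.97 and 60.4 ± 2.35 FPKM (adjusted p = 0.700). None of these differences exceeded the spread between libraries by the test.

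Some symbols do not say where the protein sits. Mammals carry 3 relatives of bacterial S18, and structures place the products of Mrps18b and Mrps18c in the small subunit and that of Mrps18a in the large one. Mrps18a was at 64.3, 65.6 and 57.6 FPKM in the 3 WT libraries, against 53.3, 62.2 and 56.4 FPKM in the 3 that carry the cKO label, with overlapping groups (adjusted p = 0.557). Mrps18c averaged 40.9 ± 2.14 and 37.7 ± 2.28 FPKM (adjusted p = 0.519) and Mrps18b 19.7 ± 1.07 and 19.0 ± 1.72 FPKM (adjusted p = 0.834). The 3 genes kept the same order of level, Mrps18a above Mrps18c above Mrps18b, in each of the 6 libraries. Mrps30, also a large subunit protein by structure, averaged 21.8 ± 0.809 and 20.5 ± 1.76 FPKM (adjusted p = 0.702). Mrps36 was named as a ribosomal protein but belongs to the oxoglutarate dehydrogenase complex, and it averaged 51.4 ± 2.08 and 53.0 ± 6.49 FPKM (adjusted p = 0.912). With Mrps18a and Mrps30 moved to the large subunit and Mrps36 left out, 40 of 51 large and 15 of 26 small subunit genes had lower means, with medians of -0.053 and -0.010.

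Levels of the members differed together between libraries of 1 group. Each member was set against its own mean over the 6 libraries. The large subunit median deviated, in log2 units, by 0.0042, 0.017 and 0.041 across WT replicates 1 to 3 and by -0.087, -0.0075 and 0.020 in cKO replicates 1 to 3. The small subunit median deviated by -0.019, -0.014 and 0.068 in WT and by -0.11, 0.036 and 0.084 in the libraries labelled cKO. Both subunits were thus lowest in cKO replicate 1, and the small subunit was highest in cKO replicate 3 and WT replicate 3, so the groups overlapped for both.

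This showed in single genes as well. cKO replicate 1 held the lowest of the 6 values for 46 of 78 members (59.0%), where it did so for 20.6% of all tested genes, and the highest value for 0 members, against 19.2% of all tested genes. cKO replicate 3 held the highest value for 31 members (39.7%, against 15.1%) and WT replicate 3 for 25 (32.1%, against 15.1%). WT replicate 2 held the lowest value for 12 members (against 20.1% of all tested genes, the share given in each bracket that follows), 9 of them in the small subunit, and the highest for 14 (26.6%). WT replicate 1 held the lowest for 6 members (10.7%) and the highest for 7 (10.5%), and cKO replicate 2 the lowest for 10 (21.1%) and the highest for 1 (13.5%). The lowest value was in WT replicate 3 for 1 member (12.4%) and in cKO replicate 3 for 3 (15.1%). Among the libraries labelled cKO alone, replicate 1 was the lowest for 57 members (73.1%, against 34.3% of all tested genes), and the median member stood 0.15 higher on the log2 scale in replicate 3 than in replicate 1, while the median of all tested genes differed by 0.0054. The median range among the libraries labelled cKO was 0.18 for members and 0.18 for all tested genes. Summed over the subunit, large subunit transcripts stood at 1878, 1905 and 1958 FPKM in the 3 WT libraries, against 1746, 1868 and 1931 FPKM in the 3 that carry the cKO label. Small subunit transcripts summed to 1125, 1102 and 1220 FPKM and to 1072, 1178 and 1231 FPKM.

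Without cKO replicate 1, 30 of 49 large and 11 of 29 small subunit members had lower means. Against WT replicate 3 alone, the WT library with Y-linked transcripts, 40 and 25 did, with medians of -0.060 and -0.087. Nuclear-encoded subunits of oxidative phosphorylation had a similar position in the libraries, with a median deviation of -0.13 in cKO replicate 1, 0.058 and 0.075 in cKO replicates 2 and 3, and -0.019 to 0.029 in WT. Cytosolic ribosomal protein genes also stood low in cKO replicate 1, at -0.12, but were at -0.11 in cKO replicate 3, where the mitochondrial ribosome members were at 0.020 and 0.084. All 80 tested cytosolic ribosomal protein genes had lower means under the cKO label, with a median of -0.14 and 0 past the threshold, where 40 of 81 oxidative phosphorylation genes did. These gene groups were compared by their values only. In cKO replicate 1 microglial markers also had their lowest sum, 7.1 FPKM, and neural stem cell markers theirs, 3594 FPKM. Neuron markers had their highest sum there, 102.7 FPKM against 83.2 to 93.2 FPKM in the other libraries. Only 3 of 10 neuron and 3 of 10 microglial markers passed the filter, so these sums rest on few genes. The tested genes together summed to 408631 FPKM in that library, the lowest of 408631 to 423919 FPKM. Their part in this pattern was not tested.

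**Figure D3:**
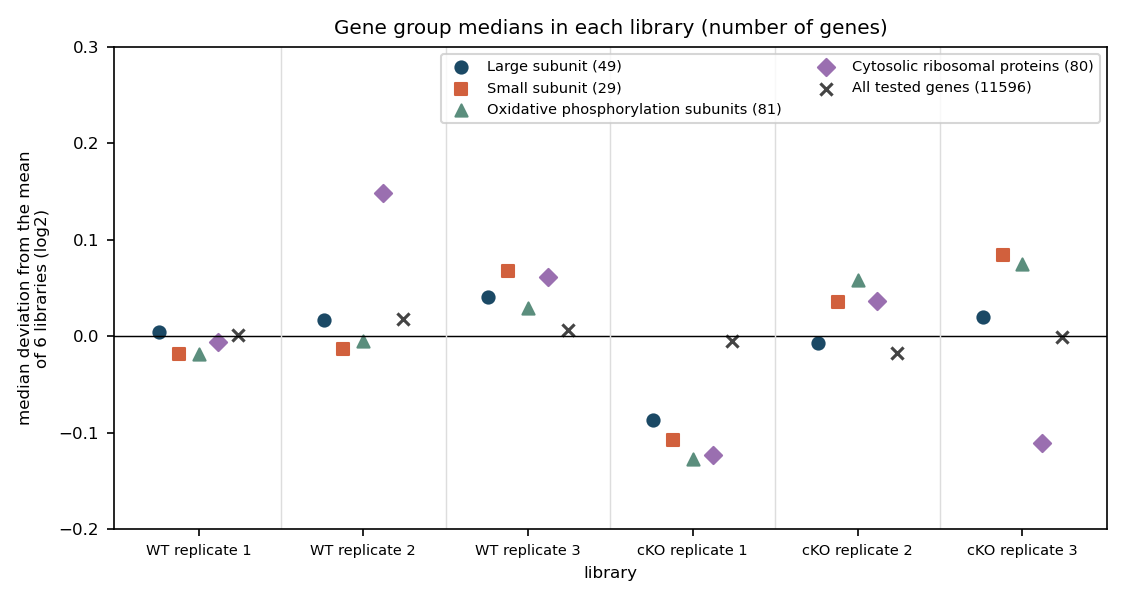
Median deviation from the mean of the 6 libraries (log2 scale) in each library for large subunit (49), small subunit (29), oxidative phosphorylation (81) and cytosolic ribosomal protein (80) genes and all 11596 tested genes. Both subunits lie lowest in cKO replicate 1, at -0.087 and -0.11, while all tested genes stay near 0 in every library.

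The members lie on 17 chromosomes, and none lies on the X chromosome. A feature of some of them, which the choice by symbol did not use, is the arrangement of their start sites. For 26 of 78 members (33.3%) another protein-coding gene starts on the opposite strand, from 100 bases inside the member to 1000 bases upstream of its start, so that both genes start from 1 stretch of DNA and are read in opposite directions. This held for 15.0% of the tested genes found in the annotation. The median distance between the start sites was 73 bases, and 19 of these members belong to the large subunit by symbol and 7 to the small one. The facing genes included Twnk, the mitochondrial DNA helicase (with Mrpl43), Sars2, the mitochondrial seryl-tRNA synthetase (with Mrps12), and Ndufs6 and Ndufb5, subunits of respiratory complex I (with Mrpl36 and Mrpl47). In 1 case both genes are members, Mrps11 and Mrpl46.

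The stretches between the start sites are shown for 4 such pairs, because they show how little sequence separates the genes; Mrpl43 was chosen after its matches were seen. They are printed on the strand of the first gene named, from RefSeq promoter sequences of GRCm38.p6 and between the start sites of the GENCODE annotation. Capitals mark CCGGAAG or its reverse complement, the core bound by ETS factors such as GABP, a known regulator of mitochondrial genes.
Mrps11 and Mrpl46, chr7:78783090-78783118, plus strand: ccatgaggcaacgcgggccggcgaggggc
Mrpl30 and Mitd1, chr1:37890412-37890476, plus strand: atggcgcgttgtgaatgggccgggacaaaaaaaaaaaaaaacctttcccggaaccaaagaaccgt
Mrps18c and Helq, chr5:100798599-100798626, plus strand: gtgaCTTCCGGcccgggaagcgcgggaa
Mrpl43 and Twnk, chr19:45006443-45006557, minus strand: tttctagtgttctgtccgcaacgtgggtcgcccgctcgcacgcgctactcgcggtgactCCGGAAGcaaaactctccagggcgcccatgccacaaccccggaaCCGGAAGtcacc
The stretch between Mrps11 and Mrpl46 is 29 bases long with 79.3% G and C. It holds none of the motifs searched, while that between Mrpl43 and Twnk holds the ETS core in 2 places.

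The facing genes were compared in the same fit. Of the 26 facing genes 0 passed the adjusted threshold, and 3 were higher and 3 lower at an unadjusted p under 0.05, where 4.44% of all tested genes were higher and 7.82% lower; Mrps11, as the gene facing Mrpl46, is among them. Mrps11 and Mrpl46 both had higher means under the cKO label, at 0.18 and 0.12 on the log2 scale. Ncapd2, a condensin subunit that faces Mrpl51, averaged 42.5 ± 3.69 and 32.6 ± 4.24 FPKM (adjusted p = 0.235), a log2 difference of -0.38 with an SE of 0.098, while Mrpl51 itself was at -0.058. Ska3, a kinetochore protein that faces Mrpl57, averaged 9.48 ± 0.845 and 7.16 ± 1.08 FPKM (a log2 difference of -0.37, adjusted p = 0.244), where Mrpl57 was at -0.14. Both are genes of cell division, and the summed mitosis markers were lower in the same libraries, but a link between them was not tested. Tcp1, which faces Mrpl18, was the other of the 3 lower genes. It averaged 111 ± 2.21 and 101 ± 4.82 FPKM (a log2 difference of -0.13, adjusted p = 0.402). Pnpla7, which faces Mrpl41 at a distance of 935 bases, averaged 8.28 ± 1.26 and 10.2 ± 0.796 FPKM (adjusted p = 0.355). In Mrps18b and Ppp1r10 the signs differed, at -0.052 and 0.15. Ncapd2, Ska3, Tcp1, Pnpla7 and Ppp1r10 were named after their values were seen.

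**Figure D4:**
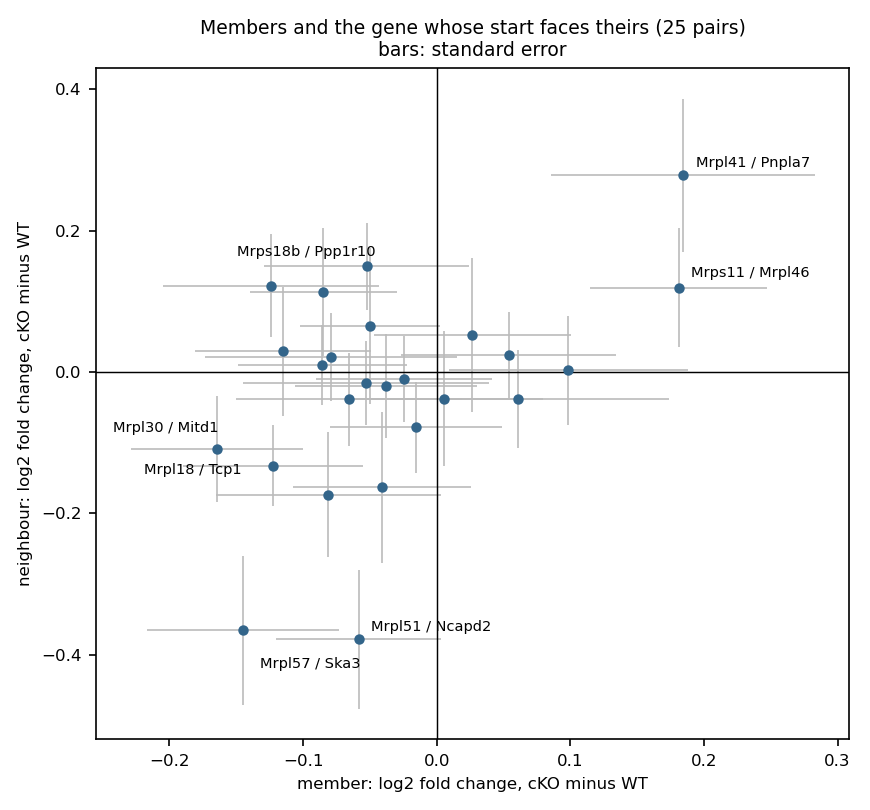
Log2 fold change (cKO minus WT) of each member (horizontal axis) and of the gene whose start site faces it (vertical axis) for 25 pairs, with bars of 1 standard error; Mrps11 and Mrpl46 are drawn once. Most points lie within 0.2 of zero on both axes, and Ncapd2 and Ska3 lie lowest, at -0.38 and -0.37.

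Promoter sequences were found for 69 of the 78 members, 250 bases before to 50 bases after a start site in RefSeq. They were searched on both strands for short motifs of factors known for mitochondrial and housekeeping promoters. CCGGAAG, the ETS core, was in 26 of 69 members (37.7%), against 21.0% of the 9386 tested genes with a promoter and 9.93% of all 27025 genes in the promoter table. AAGATGGC, the core of the YY1 motif, was in 12 members (17.4%, against 5.49% of tested genes), and its longer form, in which GGC follows, was in 5 (7.25%, against 1.91%). GCATGCGC, the core of the NRF1 motif, was in 8 members (11.6%, against 6.42%), and the full palindrome, in which GC precedes it, was in 3 (4.35%, against 2.50%). GGGCGG, the SP1 core, was in 34 members (49.3%), below the 71.2% of tested genes, and TATAAA was in 5 (7.25%, against 8.11%). A match to these letters is a description and not a bound site. A window before a listed start site of each of 2 members, chosen after the matches were seen, shows such matches. The letters of every searched motif are in capitals. By RefSeq the genes begin further upstream, at 94443154 for Mrpl9 and 58170043 for Mrpl22. Both windows therefore lie within the bounds of the gene.
Mrpl9, chr3:94443273-94443324, plus strand, full NRF1 palindrome: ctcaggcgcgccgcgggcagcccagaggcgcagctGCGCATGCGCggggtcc
Mrpl22, chr11:58171576-58171652, plus strand, ETS core and, after it, the NRF1 core on the opposite strand: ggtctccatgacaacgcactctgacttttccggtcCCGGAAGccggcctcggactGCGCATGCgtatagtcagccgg

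Other genes of mitochondrial translation were compared through 7 lists, and 0 of their tested genes passed over all genes. Ribosomal proteins with other symbols, 6 in the table, had a median log2 fold change of -0.039, with 4 lower; Mrpl58, the member that rescues stalled ribosomes, is counted here as well. Gadd45gip1, also called CRIF1, a large subunit protein near the exit of the nascent chain, had the lowest p among them. It was at 21.4, 23.8 and 23.3 FPKM in the 3 WT libraries, against 18.1, 20.3 and 17.3 FPKM in the 3 that carry the cKO label. The groups did not overlap, and the log2 fold change of -0.29 (SE 0.075, adjusted p = 0.235) was larger in size than that of any gene named Mrpl or Mrps. Unlike most of those, it was lowest in cKO replicate 3. It ranged from -0.35 to -0.24 over the alternatives. Aurkaip1, a small subunit protein, averaged 56.8 ± 3.18 and 59.9 ± 2.08 FPKM (adjusted p = 0.667).

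Factors that assemble the ribosome had a median of -0.013, with 16 of 28 lower. Mettl15, a methyltransferase of the small subunit RNA, averaged 8.01 ± 0.958 and 6.31 ± 0.871 FPKM (adjusted p = 0.333), and Tfb1m, which dimethylates the same RNA, 4.31 ± 0.465 and 3.60 ± 0.513 FPKM (adjusted p = 0.479). Genes listed as translation factors had a median of 0.012, with 4 of 15 lower. Letm1 is on this list although it is an inner membrane protein of ion exchange. It was at 34.7, 33.6 and 36.0 FPKM in the 3 WT libraries, against 37.8, 38.6 and 40.2 FPKM in the 3 that carry the cKO label. The groups did not overlap (0.16 on the log2 scale, adjusted p = 0.313). Tsfm, the exchange factor of the elongation factor Tufm, averaged 21.7 ± 1.09 and 19.1 ± 1.82 FPKM (adjusted p = 0.407).

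Enzymes that charge mitochondrial transfer RNAs had a median of -0.045, with 17 of 22 lower (77.3%, against 55.5% of all tested genes). Of these enzymes 0 were at an unadjusted limma p under 0.05. Yars2 averaged 13.95 ± 1.23 and 12.1 ± 1.29 FPKM (adjusted p = 0.451). Gars, which serves both the cytosol and the mitochondrion, averaged 52.9 ± 1.46 and 48.1 ± 3.71 FPKM (adjusted p = 0.455). Genes of mitochondrial DNA copying and expression had a median of -0.0021, with 11 of 17 lower. Mgme1, a nuclease of mitochondrial DNA, averaged 10.4 ± 0.412 and 9.38 ± 0.550 FPKM (adjusted p = 0.466), and Elac2, which trims transfer RNA ends, 13.1 ± 0.666 and 14.2 ± 1.04 FPKM (adjusted p = 0.599).

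Nuclear regulators of mitochondrial genes, 11 of 14 listed being tested, had lower means in 10 of 11, with a median of -0.033. Among all tested genes 55.5% were lower, with a median of -0.015. Of the 11 regulators 0 were at an unadjusted limma p under 0.05. Gabpb1, a subunit of the ETS factor GABP, averaged 7.76 ± 0.567 and 6.81 ± 0.630 FPKM (adjusted p = 0.476), and Sp1 averaged 11.5 ± 0.911 and 10.3 ± 0.685 FPKM (adjusted p = 0.489). Proteases and chaperones of the mitochondrion had a median of -0.063, with 9 of 14 lower. Htra2, a protease of the intermembrane space, was at 22.3, 20.7 and 22.9 FPKM in the 3 WT libraries, against 17.2, 18.5 and 20.5 FPKM in the 3 that carry the cKO label (-0.22 on the log2 scale, adjusted p = 0.297). The chaperonin Hspd1 averaged 226 ± 8.59 and 205 ± 10.1 FPKM (adjusted p = 0.438). The table held 0 genes with the mt- symbol of mitochondrially encoded genes, and other names for them were not searched. Neither the ribosomal RNAs nor the products of this ribosome were analysed here.

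**Figure D5:**
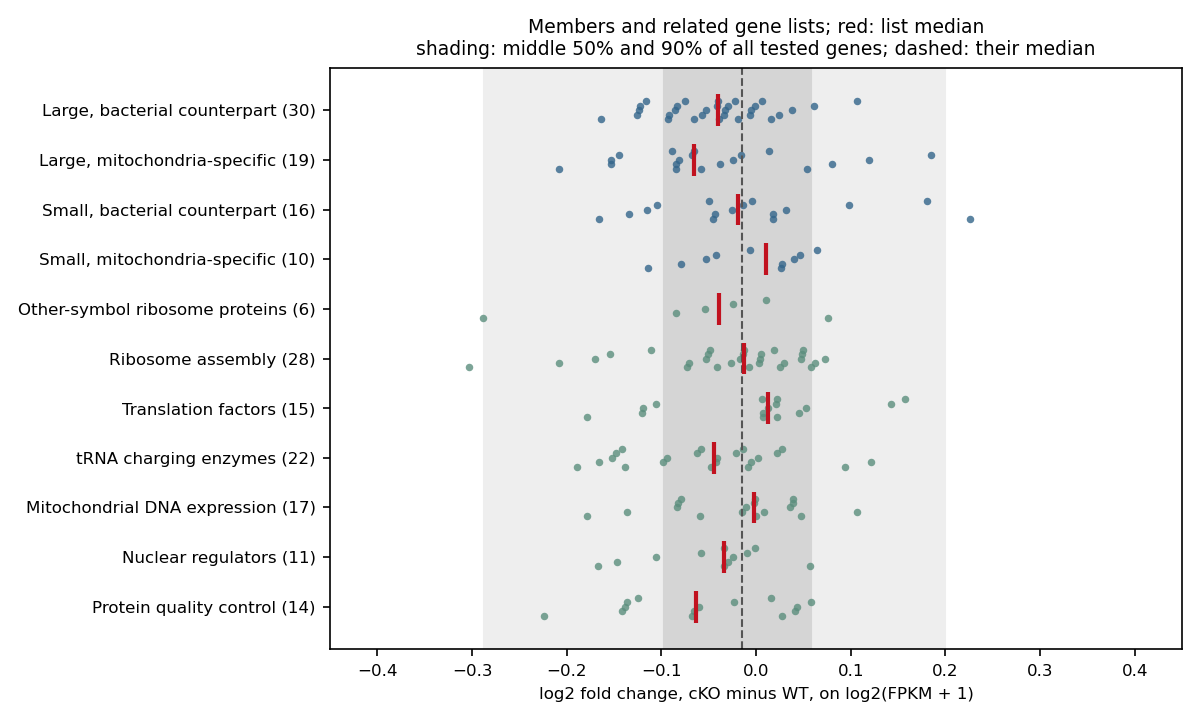
Log2 fold change (cKO minus WT, on log2(FPKM + 1)) of each tested gene in 4 classes of ribosomal proteins (blue) and 7 lists of related genes (green), with the list median in red; shading marks the middle 50% and 90% of all tested genes and the dashed line their median. Every list median lies within the middle 50% of all tested genes.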

How the data were processed

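RNA from 6 neurosphere libraries (3 WT, 3 labelled cKO) was extracted with a column kit, and the BGISEQ institute handled the library data, as the labels' protocols state. The authors deposited 1 table of FPKM, per the file headers. The submitters' processing notes name Bowtie2 and the build GRCm38 (mm10). For the counting tool, annotation, filters and strand setting, nothing is given in the sources used here.

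The 11596 of 14327 genes that averaged 1 FPKM or more were analysed as log2(FPKM + 1), which understates the change of low genes. The comparison used limma 3.58.1 (R 4.3.3) with eBayes and a mean-variance trend. Its two-sided p-values were adjusted by Benjamini-Hochberg across every tested gene, and 0.05 was the threshold. The fit was tested on simulated data. Members and lists were chosen with earlier results of these data known, so members are described by counts and medians without a test of the list. Classes and lists were written from general knowledge. Oxidative phosphorylation and cytosolic ribosomal genes were picked by symbol pattern, and they, the rule for facing start sites, the motifs and the counts by library were chosen after values were seen.

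Genes named, in each subunit, are the 5 lower and 3 higher of lowest p, the 2 highest and 2 lowest in level, the 2 with the widest spread, 7 chosen by name for their roles, and the 2 of lowest p in each related list. Exceptions are stated. All 78 members matched RefSeq genes of GRCm38.p6 by identifier. Start sites and exons are from GENCODE M21 (GRCm38, basic set), with facing starts taken from -100 to 1000 bases apart. Plots were made in Python 3.11.15 (matplotlib 3.10.9).

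Alternatives were other pseudocounts, filters, scalings and variance models, library weights, a replicate block, leaving out each library, WT replicate 3 alone, and Y-linked expression as a covariate.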

Additional observations from a re-analysis of the deposited data

How the results depend on the processing

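In every alternative run, 0 members of either subunit passed an adjusted p of 0.05. The lowest adjusted p of a member in any of them was 0.0941, for Mrpl38 with library weights. The number of all genes called, 3 in the reported fit, was 0 without a filter, with quantile normalization, without the trend, against WT replicate 3 alone and with Y-linked expression as a covariate, 129 with library weights, and 0 to 10 when 1 library was left out (0 without WT replicate 1 or cKO replicate 1, 10 without WT replicate 3). With the replicate block it was 22. Deviations of same-numbered libraries correlated at -0.043, 0.30 and 0.26 for numbers 1 to 3. The values for numbers 2 and 3 were the highest of any WT and cKO pair. WT replicate 1 correlated best with cKO replicate 2, at 0.12. Whether the numbers pair the samples is not known, and the reported fit did not pair them. Leaving out 1 library put the large subunit median between -0.070 and -0.017 and the small subunit median between -0.062 and 0.035. With library weights the large and small subunit medians were -0.016 and 0.032, and with scaling by median ratio they were -0.024 and 0.0035. With Y-linked expression as a covariate, which nearly follows the groups and can hardly be told apart from them, the medians were -0.089 and -0.18. Against WT replicate 3 alone, a single library assumed to vary like the others, they were -0.060 and -0.087. Slc22a17 stayed below WT throughout, at -0.45 to -0.023.

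Log2 fold changes of named genes that changed sign, all without passing, were as follows, and the cause was not tested. Those from the Y-linked covariate carry the limit given above. Scaling by median ratio gave 0.010 for Mrps31, and quantile normalization gave 0.0052 for Mrps31 and 0.014 for Mrpl19. Library weights gave 0.0081 for Mrps18b, 0.0090 for Mrps21 and 0.031 for Mrps31. Leaving out each library in turn gave -0.012 to 0.086 for Mrps25, -0.094 to 0.066 for Mrps21, -0.026 to 0.028 for Mrps31, -0.028 to 0.14 for Mrps36 and -0.027 to 0.20 for Mrpl36. WT replicate 3 alone gave -0.014 for Aurkaip1, 0.092 for Mrpl1, -0.035 for Mrpl36, -0.039 for Mrpl44, -0.0063 for Mrps12, -0.089 for Mrps25, -0.028 for Mrps36 and -0.014 for Mrps6. Y-linked expression as a covariate gave -0.13 for Aurkaip1, -0.057 for Elac2, 0.17 for Mettl15, 0.25 for Mrpl1, -0.10 for Mrpl36, -0.11 for Mrpl41, -0.16 for Mrpl44, -0.047 for Mrpl46, -0.016 for Mrps11, -0.18 for Mrps12, 0.19 for Mrps18a, -0.26 for Mrps25, 0.033 for Mrps30, -0.0067 for Mrps33, -0.068 for Mrps36, -0.30 for Mrps6, 0.056 for Mrps9, 0.023 for Sp1 and 0.050 for Tfb1m. FPKM carry no depth, so the precision rests on the spread between 3 libraries a group.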
